A study of Mus musculus with 2 samples.

Results

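Tuft cells are chemosensory epithelial cells, and a part of the medullary epithelium of the mouse thymus takes on a tuft cell programme. Here 8 genes of that programme were followed through single-cell RNA profiles of medullary thymic epithelial cells (mTECs): the lineage factor Pou2f3, the G-protein subunits Gnat3, Gnb3 and Gng13, the phospholipase Plcb2, the IP3 receptor Itpr3, the cation channel Trpm5 and the actin-binding protein Avil. The genes were chosen by symbol, and each of the 8 symbols matched 1 of the 55487 genes in the count matrix.

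In taste cells of the mouse, a bitter, sweet or umami receptor activates gustducin, a G protein built from the alpha subunit of Gnat3 with Gnb3 and Gng13. The freed beta and gamma subunits switch on the phospholipase of Plcb2, the IP3 that it makes opens the IP3 receptor of Itpr3, and the calcium released from internal stores opens Trpm5. Tuft cells of the intestine, airway and thymus use members of the same chain, and Pou2f3 is required for their development in mice.

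The cells came from wild-type (WT) female C57BL/6J mice, 4 weeks old, that received spermidine, a natural polyamine, at 15 mg per kg in PBS by intraperitoneal (ip) injection, or PBS alone, on each of 7 days. CD45-negative cells were enriched and sorted as mTEChi, the mature cells high in MHC class II, and post-Aire mTEClo, so shares of cell types are shares within that sort. The 4 samples, 2 spermidine and 2 PBS, were tagged with hashtag antibodies to CD45 or MHC class I and run together in 1 droplet library with capture at the transcripts' 3' ends. The labels give the hashtags of the 2 samples of each treatment but not how many mice went into each, and p-values measure the spread between these hashed samples.

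After limits on quality and hashtag assignment, 4709 cells were kept, 1374 and 1007 from the spermidine samples and 1335 and 993 from the PBS samples. Median depth was 17365 and 16782 unique molecular identifiers (UMIs) per cell in the spermidine samples and 15736 and 16378 in the PBS samples. All 12139 barcodes were distinct. Among the 4709 cells, 897 became doublets when the other 2 hashtags found in the run, which the labels tie to no sample, were included in the assignment, and values without these cells are given where they matter.

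Of the 16 clusters, 3 carried the tuft marker list, from which the 8 genes had been left out, and together held 1281 cells. None of the 8 genes was among the 2000 variable genes used for clustering. The 3 clusters were a bitter-taste cluster of 216 cells led by the regulator Rgs21 and the bitter receptor Tas2r105, an Nrgn/Frmpd4 cluster of 532 cells and an Adh1/Rgs13 cluster of 533 cells. The last 2 names are labels only, and the ranges of Rgs13 over samples overlapped between these 2 clusters. Of the 26 tuft markers, 25 were detected in the Nrgn/Frmpd4 cluster and 26 in each of the others. Comparisons of a cluster with other cells are descriptions with no test, since clusters were made from genes of the same cells.

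Of the 8 genes, 7 marked the tuft-like class strongly and 1, Itpr3, did not. Levels are given in CPM, UMIs of the gene per 1000000 gene UMIs of the class. Tuft-like cells were 27.2% of the kept cells and gave 22.24% of all gene UMIs, but 91.6% of Gnat3, 88.2% of Avil, 87.6% of Trpm5, 86.9% of Plcb2, 83.9% of Gnb3, 83.1% of Gng13 and 76.0% of Pou2f3 UMIs. For Itpr3 the share was 27.1%, little above the class's 22.24% of all gene UMIs.

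**Figure D1:**
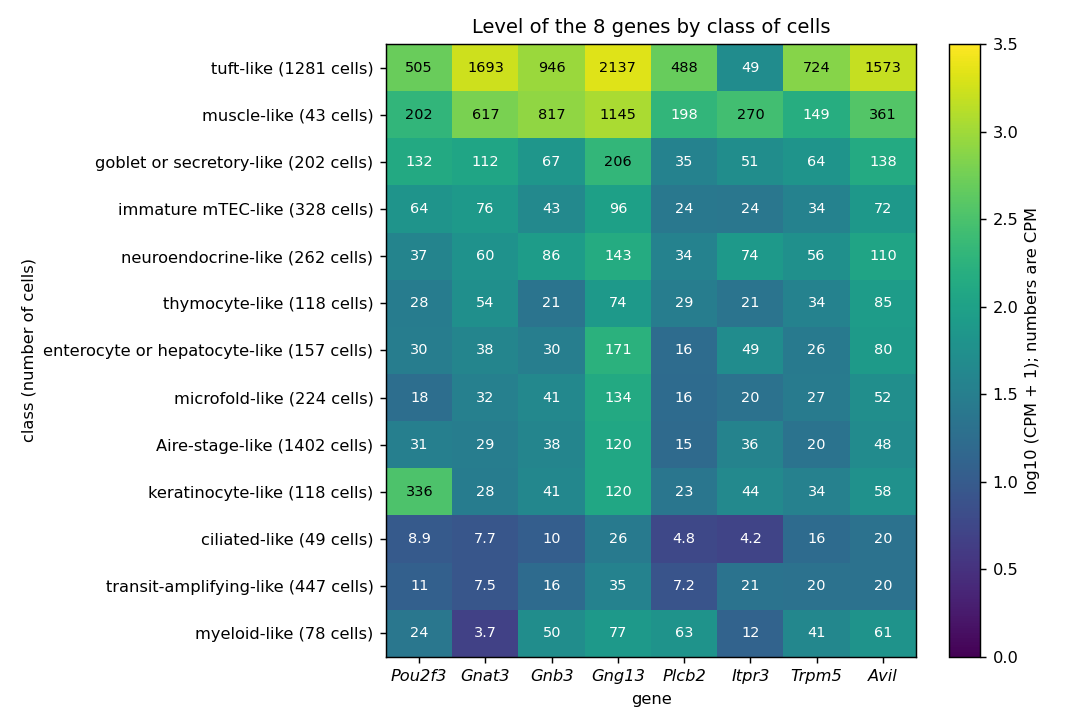
Level of each of the 8 genes (columns) in each of 13 classes of cells (rows, with their number of cells); the colour is log10 of CPM + 1 and the printed number is CPM, from all 4 hashed samples together. Tuft-like cells have the highest value in every column but Itpr3, muscle-like cells are second in 6 columns and first for Itpr3 at 270 CPM, and keratinocyte-like cells stand out for Pou2f3 alone at 336 CPM.

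Pou2f3, an octamer-binding POU factor, is encoded on chromosome 9 at 43123939-43210369 of GRCm38, minus strand. It stood at 505 CPM in tuft-like cells, with 522 and 497 CPM in the spermidine samples and 517 and 474 CPM in the PBS samples. In all other cells it stood at 45.7 CPM, with 37.2 and 36.7 CPM in the spermidine samples and 59.0 and 53.3 CPM in the PBS samples, an 11.1-fold difference between the pooled levels. Keratinocyte-like cells (118 cells) came second at 336 CPM, with 359 and 275 CPM in the spermidine samples and 364 and 313 CPM in the PBS samples. The ranges over samples of tuft-like, keratinocyte-like and muscle-like cells did not overlap. In keratinocyte-like cells no other member was above 120 CPM, and Gnat3 was at 28.1 CPM.

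Gnat3 encodes the gustducin alpha subunit and lies on chromosome 5 at 17962549-18019834, plus strand. Its tuft-like level was 1693 CPM, with 1371 and 1613 CPM in the spermidine samples and 1875 and 1790 CPM in the PBS samples, against 44.6 CPM in all other cells. The gap was 38.0-fold pooled, wider than for the other 7 genes, and 30.6-fold to 54.5-fold in single samples. Gnb3 on chromosome 6 (124834240-124840275, minus strand) and Gng13 on chromosome 17 (25717171-25719406, plus strand) encode the matching beta and gamma subunits. Gnb3 was at 946 CPM in tuft-like cells and 51.9 CPM in the others, 18.2-fold apart, and Gng13 at 2137 and 125 CPM, 17.2-fold apart. Gng13 overlaps Chtf18 on the opposite strand, and whether the authors counted reads by strand is not given in the sources used here.

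Plcb2 encodes the phospholipase C beta of the taste chain and lies on chromosome 2 at 118707517-118728438, minus strand. It had 488 CPM in tuft-like cells and 21.03 CPM in the others, 23.2-fold apart. Trpm5, the calcium-gated cation channel that depolarises the cell, lies on chromosome 7 at 143069153-143094642, minus strand, and had 724 and 29.4 CPM, 24.6-fold apart. Avil, an actin-binding protein of the villin family that marks tuft cells, lies on chromosome 10 at 127000709-127020994, plus strand, and had 1573 and 60.3 CPM, 26.1-fold apart. Trpm5 and Avil overlap Tssc4 and Tsfm on the opposite strand. The ranges over samples of the tuft-like class and the class next to it did not overlap for Pou2f3, Gnat3, Gng13, Plcb2, Trpm5 and Avil. For Gnb3 they did, since muscle-like cells reached 1183 CPM in 1 spermidine sample.

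Itpr3, an IP3 receptor gene, lies on chromosome 17 at 27057304-27122223, plus strand, and overlaps Itpr3os on the opposite strand. It had 49.4 CPM in tuft-like cells, with 48.8 and 45.3 CPM in the spermidine samples and 51.3 and 50.1 CPM in the PBS samples. In all other cells it had 38.0 CPM, with 34.7 and 34.4 CPM in the spermidine samples and 43.8 and 40.6 CPM in the PBS samples. Tuft-like cells were the higher in each of the 4 samples, by 1.17-fold to 1.41-fold. They had rank 4 of 13 classes, after muscle-like cells at 270 CPM, neuroendocrine-like cells at 74.3 CPM and goblet or secretory-like cells at 51.4 CPM, and their range over samples overlapped that of the goblet or secretory-like cells.

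Without the 897 doublets of the assignment with 6 hashtags the folds were wider: 67.9 for Gnat3, where the other cells stood at 26.4 CPM, 43.3 for Avil, 38.7 for Trpm5, 36.6 for Plcb2, 25.7 for Gnb3, 23.5 for Gng13 and 13.4 for Pou2f3. The fold of Itpr3 stayed at 1.30.

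Below the first classes the order of levels was mostly unresolved. Between neighbours among the 13 classes, ranges over the 4 samples stood apart for 3 of 12 pairs for Pou2f3, for 2 of 12 for Gng13, Itpr3 and Avil, for 1 of 12 for Gnat3, Plcb2 and Trpm5 and for 0 of 12 for Gnb3. Thymocyte-like and myeloid-like cells, which are not epithelial, also gave UMIs of Gnat3 and Avil. Gnat3 was at 54.1 CPM in 118 thymocyte-like cells and 3.69 CPM in 78 myeloid-like cells, against 7.75 CPM in ciliated-like and 7.51 CPM in transit-amplifying-like cells. Avil was at 84.8 and 61.3 CPM in the thymocyte-like and myeloid-like cells, against 19.7 and 19.8 CPM in the ciliated-like and transit-amplifying-like cells. The level that free RNA gives was not measured, and it cannot be read from 1 class.

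Promoters were available from RefSeq (GRCm38.p6, 250 bases before to 50 after the start) for 6 of the 8 genes, 7 promoters in all. POU2F factors bind the octamer ATGCAAAT. An exact match on either strand was present in 570 of 32851 promoters, 1.74%, and in 1 of the 7, that of Itpr3, the member with the least tuft-biased level. The sequences below are that promoter and those of Trpm5 and Avil, whose levels over clusters were the most alike, 5' to 3' along the gene's strand, with the octamer in capitals where it occurs.
Itpr3, chr17:27057054-27057353, plus strand: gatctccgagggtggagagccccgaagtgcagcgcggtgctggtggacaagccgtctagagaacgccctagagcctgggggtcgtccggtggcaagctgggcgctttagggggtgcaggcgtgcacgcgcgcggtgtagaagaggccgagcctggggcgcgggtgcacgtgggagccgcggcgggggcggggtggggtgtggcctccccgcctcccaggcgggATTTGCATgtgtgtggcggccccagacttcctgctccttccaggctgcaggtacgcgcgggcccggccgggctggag
Trpm5, chr7:143094593-143094892, minus strand: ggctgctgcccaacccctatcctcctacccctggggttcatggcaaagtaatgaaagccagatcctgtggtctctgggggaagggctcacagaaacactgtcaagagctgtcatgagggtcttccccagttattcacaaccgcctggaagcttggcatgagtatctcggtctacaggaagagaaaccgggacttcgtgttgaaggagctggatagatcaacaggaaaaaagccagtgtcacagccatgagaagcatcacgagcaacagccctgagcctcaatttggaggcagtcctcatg
Avil, chr10:127000459-127000758, plus strand: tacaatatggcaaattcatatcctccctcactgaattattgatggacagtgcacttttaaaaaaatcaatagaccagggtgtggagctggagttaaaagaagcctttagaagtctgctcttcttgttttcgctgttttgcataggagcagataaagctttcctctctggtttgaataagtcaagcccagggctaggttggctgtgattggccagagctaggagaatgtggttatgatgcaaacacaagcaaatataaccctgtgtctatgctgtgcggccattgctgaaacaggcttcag
In the Itpr3 promoter the capitals, ATTTGCAT, are the octamer read on the opposite strand, 27 bases before the start. The best stretch in the Avil promoter had 1 mismatch and that in the Trpm5 promoter 2. A match or its lack in this window says nothing of binding.

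Within the tuft-like class the members split into those that followed the bitter-taste cluster and those that did not. Gnat3 was at 4504 CPM in the bitter-taste cluster, 744 CPM in the Nrgn/Frmpd4 cluster and 1084 CPM in the Adh1/Rgs13 cluster. By sample, its bitter-taste level was 4368 and 3911 CPM with spermidine and 4682 and 4803 CPM with PBS, and the highest sample of the other 2 clusters reached 1170 CPM, so the clusters did not overlap. Gnb3 showed the same order at 2282, 485 and 666 CPM, and its lowest bitter-taste sample, 2099 CPM, was above the highest sample of the other 2 clusters, 770 CPM. The alpha and beta subunits of gustducin were thus 4.96-fold and 3.99-fold higher in the bitter-taste cluster than in all other tuft-like cells.

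Itpr3 followed them. It was at 113 CPM in the bitter-taste cluster, with 150 and 91.4 CPM in the spermidine samples and 101 and 130 CPM in the PBS samples, against 34.7 and 28.2 CPM in the Nrgn/Frmpd4 and Adh1/Rgs13 clusters. Its highest sample in those 2 clusters was 41.5 CPM. The 3.58-fold difference rests on 466 UMIs in the bitter-taste cluster. Gng13 and Plcb2 were higher there by smaller factors, 1.52-fold and 1.40-fold, and their lowest bitter-taste samples, 2605 and 554 CPM, still exceeded the highest of the other clusters, 2158 and 515 CPM.

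Pou2f3, Avil and Trpm5 did not follow the bitter-taste cluster. Their ratios to the other tuft-like cells were 1.04, 0.952 and 0.858. Trpm5 was highest in the Nrgn/Frmpd4 cluster at 851 CPM, with 823 to 886 CPM by sample, against 641 CPM in the bitter-taste cluster, with 580 to 671 CPM by sample, and 636 CPM in the Adh1/Rgs13 cluster. Pou2f3 stood at 522, 469 and 535 CPM in the bitter-taste, Nrgn/Frmpd4 and Adh1/Rgs13 clusters and its ranges overlapped. The bitter-taste cells had a deeper median, 17200 UMIs per cell against 11970 and 11410, while CPM is a share of each cluster's UMIs.

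The cluster's edge depended on the processing. The matching cluster had 306 cells with stricter cell limits and 541 cells by a margin rule for hashtags, and at a Leiden resolution of 0.5 the bitter-taste cells were not separate but part of a cluster of 756 cells with most of the Adh1/Rgs13 cells. With 6 hashtags in the assignment the matching cluster had 365 cells and its ratios to other tuft-like cells were 3.76 for Gnat3, 3.04 for Gnb3, 1.95 for Itpr3 and 0.675 for Trpm5. Without the doublets of that assignment, in the clusters as they stood, they were 4.88, 4.48, 3.97 and 0.874.

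**Figure D2:**
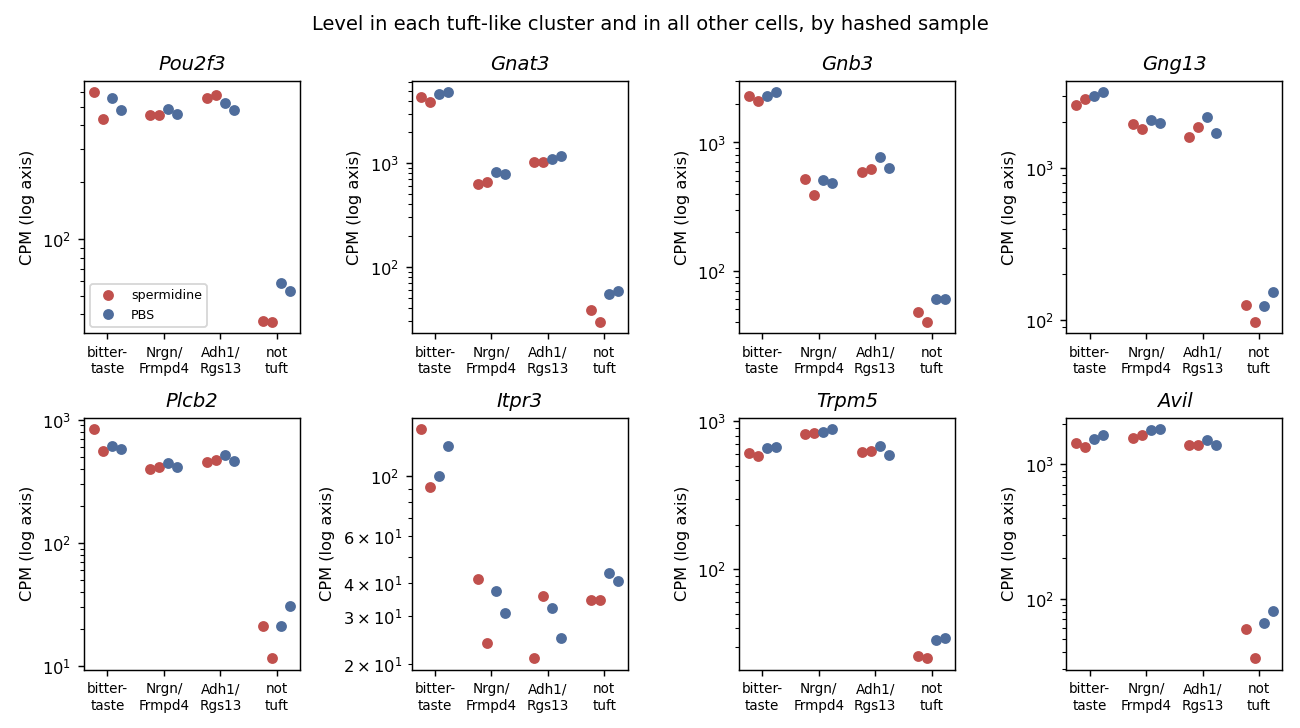
CPM (log axis) of each gene in the bitter-taste, Nrgn/Frmpd4 and Adh1/Rgs13 clusters and in all cells that are not tuft-like; each point is 1 hashed sample, spermidine left of PBS. The bitter-taste points stand above those of both other clusters for Gnat3, Gnb3, Gng13, Plcb2 and Itpr3, and for Itpr3 the points of the other tuft-like clusters, at 20.9 to 41.5 CPM, reach no higher than those of the cells that are not tuft-like, at 34.4 to 43.8 CPM.

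Relatives of the members gave the chain's alternatives in the same cells. UMIs from 3' ends do not scale with transcript length, but capture can differ between genes, so the levels of 2 genes are set side by side without a test. Itpr2, a second IP3 receptor gene, was at 888 CPM in tuft-like cells and 101 CPM in the others, and Itpr1, the remaining one, at 23.2 and 32.6 CPM. In the bitter-taste cluster, against the other 2 tuft-like clusters, Itpr2 ran opposite to Itpr3. It was at 406 CPM in the bitter-taste cluster, 1208 CPM in the Nrgn/Frmpd4 cluster and 823 CPM in the Adh1/Rgs13 cluster, and its highest bitter-taste sample, 487 CPM, was below the lowest of the other 2 clusters, 766 CPM.

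Plcg2, a phospholipase C activated by tyrosine kinases, also ran against the bitter-taste cluster, with 236 CPM there and 412 and 355 CPM in the Nrgn/Frmpd4 and Adh1/Rgs13 clusters, against 38.4 CPM in cells that are not tuft-like. Plcb4 was at 205 CPM in tuft-like cells and 192 CPM in the others, and Plcb3 at 16.0 and 14.3 CPM. Among alpha subunits, Gnai2, a general inhibitory one, was at 586 CPM in tuft-like cells and 287 CPM in the others, and differed little between tuft-like clusters (632, 592 and 553 CPM in the bitter-taste, Nrgn/Frmpd4 and Adh1/Rgs13 clusters). Gnat1 and Gnat2, the transducins of rods and cones, were near 0, at 0.2 and 0.1 CPM in tuft-like cells. Gnb1 was at 329 and 251 CPM in tuft-like and other cells, and Gnb4 at 28.1 and 196 CPM.

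**Figure D3:**
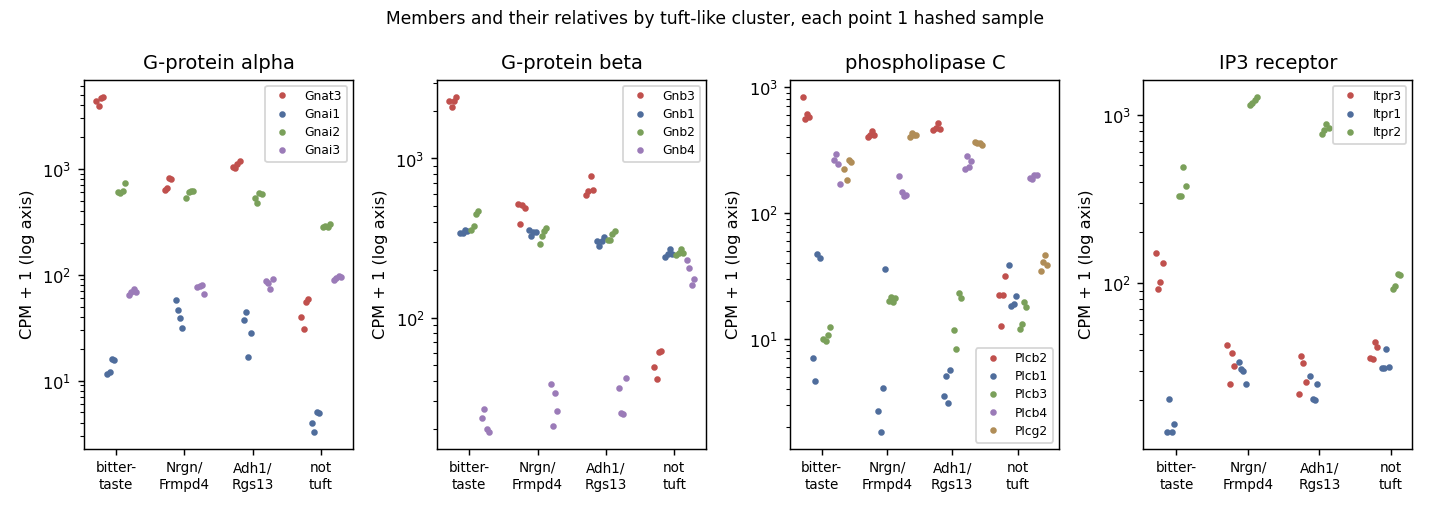
CPM + 1 (log axis) of Gnat3, Gnb3, Plcb2 and Itpr3, in red, and of their relatives in the 3 tuft-like clusters and in cells that are not tuft-like; each point is 1 hashed sample. Gnat3, Gnb3 and Itpr3 are highest in the bitter-taste cluster, Itpr2 and Plcg2 are lowest there among tuft-like clusters, and Plcb1 has 2 PBS points near 45 CPM above 2 spermidine points under 10 CPM in that cluster.

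Genes around the chain differed in how far they followed the class. The octamer coactivator gene 1810046K07Rik, known as a partner of Pou2f3, was at 461 CPM in tuft-like cells and 22.8 CPM in the others, and Colca2, another such partner, at 111 and 23.5 CPM. The B cell octamer coactivator Pou2af1 was at 1.8 and 14.7 CPM. Trpm4, the channel nearest to Trpm5, was at 22.6 and 15.9 CPM, and Atp2a3, a calcium pump of internal stores, at 735 and 82.6 CPM. Rgs21, a G-protein regulator of taste cells, was at 794 CPM in the bitter-taste cluster and 17.6 and 29.4 CPM in the Nrgn/Frmpd4 and Adh1/Rgs13 clusters. Tas2r105 was at 181, 11.3 and 14.2 CPM in the same 3 clusters. The umami and sweet receptor subunit Tas1r3 was spread evenly, at 32.0, 30.6 and 28.7 CPM.

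By pattern over the 16 clusters (Pearson r of log2 of CPM + 1, over 16121 genes with at least 10 CPM in 1 cluster), the genes most like the mean of the 8 were 1810046K07Rik (r = 0.981), Cadps2, a factor of vesicle release (0.975), Gm12446 (0.972), Lrmp (0.971) and the diacylglycerol kinase Dgki (0.970). Oxr1, Plk2, Prss53 and 9130024F11Rik were at 0.962 to 0.967, and 105 genes in all exceeded 0.9. The nearest gene to each member was Ahnak2 for Pou2f3 (0.971), Cadps2 for Gnat3 (0.963), Gm50339 for Gnb3 (0.972), Prss53 for Gng13 (0.974), Lrmp for Plcb2 (0.985), Rgs16 for Itpr3 (0.863), Ackr4 for Trpm5 (0.980) and Mctp1 for Avil (0.987). Among the members themselves the closest pair was Trpm5 and Avil (0.982), and Itpr3 was the loosest, from 0.444 with Trpm5 to 0.670 with Gnb3. The clusters share 1 library and its free RNA, so these values are a description.

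In single cells, most of the 8 genes had a UMI in the typical tuft-like cell. Each cell was thinned to 3000 UMIs, and shallower cells were left out: among tuft-like cells 8 and 5 in the spermidine samples and 7 and 7 in the PBS samples, and among other cells 63 and 60 in the spermidine samples and 66 and 58 in the PBS samples. A UMI of Avil was present in 95.5% of 1254 tuft-like cells (95% exact binomial interval 94.2 to 96.6%, counting error only), of Gng13 in 91.7%, of Trpm5 in 84.2%, of Pou2f3 in 75.1%, of Plcb2 in 71.0%, of Gnb3 in 60.2% and of Gnat3 in 54.5%. Itpr3 was found in 11.4% of tuft-like cells (9.70 to 13.3%) and 11.2% of other cells. Unthinned, the shares were 98.4% for Avil, 69.0% for Gnat3 and 36.6% for Itpr3. In thymocyte-like cells the thinned shares ran from 3.92% for Pou2f3, Itpr3 and Trpm5 to 11.8% for Gng13, with a median of 5816 UMIs per cell before thinning, against 12720 UMIs in tuft-like cells.

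Gnat3 was detected in fewer cells but at a high level where the bitter-taste cells were counted alone. There 88.0% of cells held a Gnat3 UMI and 93.1% a Gnb3 UMI, against 48.0% and 52.2% in the Nrgn/Frmpd4 cluster and 47.2% and 54.6% in the Adh1/Rgs13 cluster. Itpr3 was detected in 22.2% of bitter-taste cells (16.9 to 28.4%), 12% of Nrgn/Frmpd4 cells and 6.24% of Adh1/Rgs13 cells. A tuft-like cell held UMIs of 5.44 of the 8 genes on average, a bitter-taste cell 6.40, and a cell that was not tuft-like 0.686. In 92.1% of tuft-like cells 4 or more of the 8 were present, against 3.21% of other cells. All 8 were present in 2.71% of tuft-like cells. Within tuft-like cells, pairs of the genes were found together at 0.968 to 1.26 times the share that independent detection would give.

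Of the 102 other cells with 4 or more members, 58 (56.9%) were doublets in the assignment with 6 hashtags, against 17.4% of other cells with fewer. In Aire-stage-like cells, the stage at which the autoimmune regulator Aire is made, it was 21 of 27 such cells (77.8%, against 19.2% of those with fewer). The part of doublets in these counts was not tested further.

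**Figure D4:**
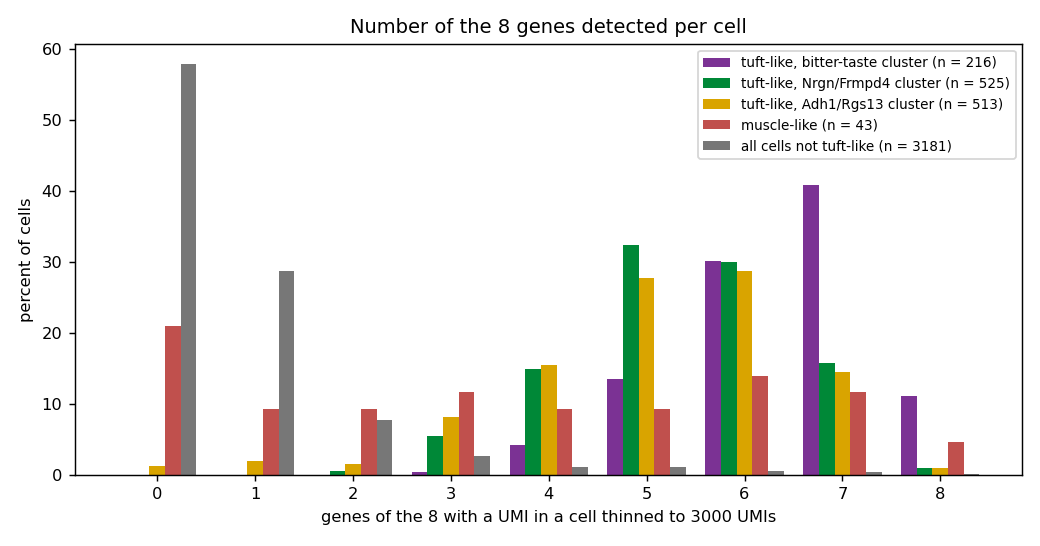
Percent of cells (y axis) by how many of the 8 genes had a UMI in a cell thinned to 3000 UMIs (x axis), for the 3 tuft-like clusters, muscle-like cells and all cells that are not tuft-like (n cells in the legend). Bitter-taste cells peak at 7 genes, the other tuft-like clusters at 5 to 6, cells that are not tuft-like at 0, and muscle-like cells spread from 0 to 8.

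The muscle-like cells, 43 cells led by Myog, the myogenic factor, were the second class for 6 of the 8 genes and the first for Itpr3. Their levels were 1145 CPM for Gng13, 817 CPM for Gnb3, 617 CPM for Gnat3, 361 CPM for Avil, 202 CPM for Pou2f3, 198 CPM for Plcb2 and 149 CPM for Trpm5. Itpr3 was at 270 CPM, with 271 and 168 CPM in the spermidine samples and 262 and 335 CPM in the PBS samples, all above the tuft-like range. The sample levels of the others were wide, such as 784 and 22.0 CPM for Gnat3 with spermidine and 393 and 1081 CPM with PBS, and the sample with 22.0 CPM held 6 muscle-like cells.

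Of the 43 cells, 21 (48.8%) had 4 or more members at 3000 UMIs, and 3 of these were doublets in the assignment with 6 hashtags (14.3%), against 2 of the 22 with fewer (9.09%). The part of doublets in these cells was not tested. These 21 cells all carried Myog, at 1906 CPM, against 2511 CPM in the other 22 muscle-like cells. The mature muscle genes Acta1 and Ckm were at 555 and 136 CPM in them, against 2236 and 712 CPM in the other 22. Lrmp was at 3004 CPM in them, against 166 CPM in the other 22, and the tuft marker Rgs13 was at 268 CPM, against 36.2 CPM. Dclk1, a kinase that marks tuft cells, was at 56.7 CPM in them, against 27.6 CPM in the other 22. In tuft-like cells with 4 or more members Lrmp was at 2509, Rgs13 at 1557 and Dclk1 at 3088 CPM. Without the doublets, the 38 remaining muscle-like cells had 552 CPM of Gnat3, 871 CPM of Gnb3, 1177 CPM of Gng13 and 271 CPM of Itpr3.

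Spermidine was compared with PBS in UMIs summed per hashed sample, by edgeR's quasi-likelihood test with Benjamini-Hochberg adjustment over all genes tested and a threshold of 0.05. All 8 genes passed the filter on low counts in each of the 6 comparisons. In all kept cells together, each of the 8 genes was lower in both spermidine samples than in both PBS samples, and none passed the test. The largest difference was in Gnat3, at 271 and 319 TMM-scaled CPM in the spermidine samples and 594 and 463 in the PBS samples, a log2 fold change of -0.84 (SE 0.15, adjusted p = 0.124). Avil stood at 308 and 300 in the spermidine samples and 531 and 444 in the PBS samples (log2 fold change -0.68, adjusted p = 0.12), and Trpm5 at 144 and 147 in the spermidine samples and 245 and 198 in the PBS samples (-0.61, adjusted p = 0.128).

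Gnb3, Gng13, Plcb2 and Pou2f3 had log2 fold changes of -0.70, -0.63, -0.59 and -0.50, with adjusted p of 0.13, 0.133, 0.139 and 0.162. Itpr3 had the smallest difference, at 37.6 and 37.0 in the spermidine samples and 44.9 and 42.9 in the PBS samples (-0.24, adjusted p = 0.194). Of all 22660 genes tested, 25.9% were lower in both spermidine samples than in both PBS samples and 0% passed the test, with 4091 at an unadjusted p under 0.05 and 798 passing with DESeq2. The median over the 8 genes was -0.62 and that over all genes 0.01. The 7 genes other than Itpr3 passed with DESeq2, with no filter on low counts and without PBS replicate 2, where Gnat3 had an adjusted p of 0.0284, and Gnat3 and Gnb3 passed in cells thinned to 3000 UMIs (adjusted p = 0.0317). In these settings 798, 2991, 762 and 110 genes passed in all.

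The share of tuft-like cells was also lower. It was 23.3 and 22.1% of kept cells in the spermidine samples and 34.3 and 28.3% in the PBS samples, or 22.7 ± 0.88% and 31.3 ± 4.25% (SD, n = 2 each). This was a difference of -8.63 percentage points, with the smallest p that an exact permutation of 2 against 2 samples allows, 0.3333 (two-sided). It was not particular to this class. The shares of immature mTEC, goblet or secretory, keratinocyte, ciliated and muscle-like cells were also lower in both spermidine samples than in both PBS samples. Those of Aire-stage, transit-amplifying and thymocyte-like cells were higher in both, and the remaining classes overlapped. Shares within a sample depend on each other. In sums over all cells, fewer tuft-like cells and less RNA per cell cannot be told apart. Cells that are not tuft-like were not tested as a group. They hold the smaller part of the UMIs of each member but Itpr3, for which only 27.1% lay in tuft-like cells. In cells that are not tuft-like, Pou2f3 and Itpr3, with values given above, were lower in both spermidine samples than in both PBS samples. Trpm5 was there at 26.2 and 25.1 CPM in the spermidine samples and 33.4 and 34.6 CPM in the PBS samples. Gng13 was at 125 and 97.8 CPM in the spermidine samples and 124 and 154 CPM in the PBS samples, which overlap. Gnat3, Gnb3, Plcb2 and Avil are not given by sample for this group. The share of all genes lower in both spermidine samples was not counted there, so no result about the members is drawn from these values.

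Within tuft-like cells the differences were smaller. Gnat3 was at 1385 and 1637 TMM-scaled CPM in the spermidine samples and 1872 and 1799 in the PBS samples, a log2 fold change of -0.28 (SE 0.081, adjusted p = 0.298). Gnb3 was at 822 and 921 in the spermidine samples and 1034 and 966 in the PBS samples (-0.20, adjusted p = 0.414). Gng13 was at 1911 and 2115 in the spermidine samples and 2314 and 2144 in the PBS samples (-0.15, adjusted p = 0.533). The 3 gustducin subunits were thus lower in both spermidine samples than in both PBS samples, without passing the test.

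Avil was at 1496 and 1502 in the spermidine samples and 1635 and 1642 in the PBS samples (-0.13, adjusted p = 0.499). Trpm5 and Itpr3 also stood apart, with log2 fold changes of -0.07 and -0.09 (adjusted p = 0.73 and 0.824). Plcb2 and Pou2f3 overlapped between treatments, at -0.01 and 0.06 (adjusted p = 0.97 and 0.841). In all, 6 of the 8 were lower in both spermidine samples, against 20.6% of the 14047 genes tested, and 0 passed, against 0.0641% (9 genes, with 1399 at an unadjusted p under 0.05). The median over the 8 was -0.11.

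Gnat3 passed in tuft-like cells without spermidine replicate 2 (log2 fold change -0.41, adjusted p = 0.00454) and with no filter on low counts (-0.30, adjusted p = 3.04e-05), where Gnb3 also passed (-0.22, adjusted p = 0.0250). More genes passed in both settings than the 9 above, 161 of 14943 tested without that replicate and 498 of 29018 with no filter. The bitter-taste cluster, where both genes were highest, made up 10.9 and 18.5% of tuft-like cells in the spermidine samples and 19.9 and 17.4% in the PBS samples (exact permutation p = 0.667, two-sided). Gnat3 was lowest in the sample with 10.9%. It was at 1637 TMM-scaled CPM in the spermidine sample with 18.5%, against 1799 in the PBS sample with 17.4%. The part of this share in the Gnat3 difference was not tested. Summed levels of marker lists also differed inside the class: the 26 tuft markers stood at 15780 and 16170 CPM in the spermidine samples and 17350 and 17480 CPM in the PBS samples. The 16 Aire-stage markers stood at 1295 and 1508 CPM in the spermidine samples and 1076 and 1152 CPM in the PBS samples, and the 13 neuroendocrine markers at 1186 and 1101 CPM in the spermidine samples and 786 and 821 CPM in the PBS samples. The immature mTEC, cortical epithelial, myeloid and endothelial lists were also higher in both spermidine samples than in both PBS samples. The fibroblast list was lower in both, and the remaining lists overlapped. No gene of the tuft, Aire-stage and neuroendocrine lists was at 0 in the tuft-like class. The part of the marker lists in the result was not tested.

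**Figure D5:**
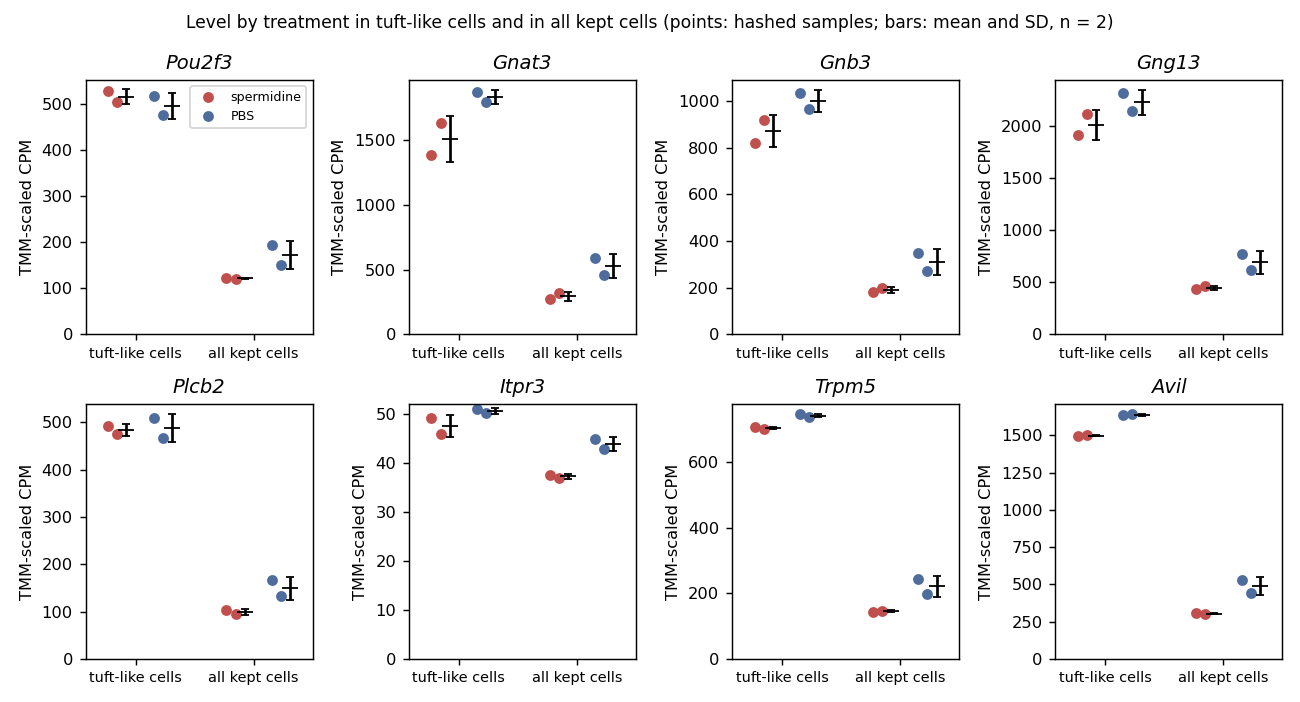
TMM-scaled CPM of each gene in tuft-like cells and in all kept cells, spermidine left of PBS; points are hashed samples and bars the mean and SD (n = 2 each). In all kept cells both spermidine points lie below both PBS points for all 8 genes, and in tuft-like cells they do so for all but Pou2f3 and Plcb2, with smaller gaps.

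Cluster by cluster, none of the 8 passed. In the bitter-taste cluster Gnat3 was at 4580 and 4059 TMM-scaled CPM in the spermidine samples and 4735 and 4958 in the PBS samples (log2 fold change -0.17, adjusted p = 0.951). There 4 of the 8 genes were lower in both spermidine samples than in both PBS samples, against 17.9% of the 9426 genes tested, and 0 passed, against 0.0318%. In the Nrgn/Frmpd4 cluster Gnat3 was at 635 and 680 in the spermidine samples and 827 and 801 in the PBS samples (-0.31, adjusted p = 0.568). It passed there with a stricter limit on cells (-0.55, adjusted p = 0.0379) and with no filter on low counts (adjusted p = 0.0177), where 12 and 235 genes passed in all, and turned to 0.08 without the doublets of the assignment with 6 hashtags. In that cluster 3 genes stood apart, against 17.9% of 11364 genes, and 0 passed, against 0.0352%.

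In the Adh1/Rgs13 cluster Gnat3 was at 1051 and 1047 in the spermidine samples and 1116 and 1185 in the PBS samples (-0.13, adjusted p = 0.81). Pou2f3 was the one member higher in both spermidine samples, at 568 and 595 against 529 and 492 in the PBS samples (log2 fold change 0.19, adjusted p = 0.774). There 2 genes stood apart lower, against 19% of 11450 genes, and 0 passed, against 0.0524%. The difference between clusters in the effect of spermidine was not tested.

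In Aire-stage-like cells (1402 cells) Avil was at 43.4 and 40.8 TMM-scaled CPM in the spermidine samples and 59.9 and 57.03 in the PBS samples (-0.47, adjusted p = 0.623). Trpm5 was at 17.1 and 14.6 in the spermidine samples and 28.8 and 26.2 in the PBS samples (-0.79, adjusted p = 0.62). These and Itpr3 were lower in both spermidine samples, 3 of 8, against 18.6% of 18817 genes, and 0 passed, against 0% (1309 genes at an unadjusted p under 0.05, and 92 passing with DESeq2). Some directions there rest on the assignment: without the doublets of the assignment with 6 hashtags Avil was 0.26, Gnat3 1.503 and Gnb3 0.87 on the log2 scale, none of them passing. Trpm5 and Pou2f3 alone stayed lower with spermidine in every alternative, with log2 fold changes of -0.98 to -0.36 and -0.61 to -0.12.

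Across the lists of neighbouring genes, 1 gene passed in 1 comparison. Plcb1, a phospholipase C beta close to Plcb2, was at 6.29 and 3.80 TMM-scaled CPM in the spermidine samples and 46.3 and 44.4 in the PBS samples of the bitter-taste cluster (log2 fold change -3.18, SE 0.39, adjusted p = 0.0433). It rests on 4 and 3 UMIs in the spermidine samples and 80 and 38 in the PBS samples. The gene met the filter on low counts through the PBS samples alone, where it was high, so its pass is given as a value and not as support. Few cells carry this value. A Plcb1 UMI was found in 3 of 35 and 2 of 41 cells in the spermidine samples and in 11 of 91 and 12 of 49 cells in the PBS samples, and the highest cell gave 22.5 and 21.1% of the UMIs in the PBS samples. It no longer passed with a replicate block (adjusted p = 0.0868), without spermidine replicate 2 (0.0532), without PBS replicate 1 (0.301), with 6 hashtags (0.151) or without their doublets (0.226).

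No other listed gene passed in any of the 6 comparisons. In all kept cells the receptors upstream, 11 of 14 of them tested, had a median log2 fold change of -0.65 with 9 lower in both spermidine samples than in both PBS samples. The 12 tuft effectors had a median of -0.59 with 9 apart, and the 14 octamer factors and partners one of -0.37 with 12 apart, against 25.9% of all genes. In tuft-like cells these medians were -0.11, -0.10 and -0.02, and the numbers apart and lower were 2 of 9 receptors, 7 of 12 effectors and 6 of 13 factors, against 20.6% of all genes, near the share of the receptors.

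Per cell, the mean number of the 8 genes seen in a tuft-like cell at 3000 UMIs was 5.33 and 5.34 in the spermidine samples and 5.56 and 5.43 in the PBS samples. The difference of -0.16 had the smallest p possible, 0.3333 (exact permutation, two-sided), and became 0.01 without the doublets of the assignment with 6 hashtags (p = 1).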

How the data were processed

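The counts are UMIs per gene and per hashtag that the authors deposited as 1 matrix of 55487 genes and 15 hashtag features over 12139 barcodes. Cell Ranger 7.1.0 made them, per the matrix header. The submitters' processing notes also name bcl2fastq, Seurat and mm10. The genes' IDs were matched to GENCODE M21 (GRCm38), where 55141 matched without version.

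Barcodes needed a minimum of 1000 UMIs and 500 genes, with mitochondrial UMIs below 15%. The 8534 that met these limits were assigned to the 4 labelled hashtags with HTODemux in Seurat 5.3.0, which left 4709 cells and removed 1027 doublets between these hashtags; no other doublet caller was run. Cells were clustered with scanpy 1.11.5 (2000 variable genes, 30 components, 15 neighbours, Leiden resolution 1) and named by markers. UMIs summed per hashed sample and class were tested with edgeR 4.0.16 (filterByExpr at 10 and 15, TMM, quasi-likelihood test, Benjamini-Hochberg adjustment). Each fit was tested on simulated counts. Samples of a treatment differed beyond the counting noise of UMIs (chi-square per gene 7.51 for spermidine and 10.9 for PBS). This measure leaves out the sampling of cells of unlike classes, whose part in it was not tested. The gene total was 17668782 to 25673749 UMIs per sample.

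The members, marker lists and lists of neighbouring genes were chosen with earlier results of these data known. Named genes are the 8 members, their relatives, listed genes that passed a test, and the genes of the most similar pattern over clusters, 1 of which is not reported here. Alternatives were DESeq2 1.42.0, no low-count filter, a replicate block, each sample left out, 6 hashtags, a margin rule for hashtags, stricter cell limits, cells thinned to 3000 UMIs, other clusterings and, chosen after seeing the data, the same clusters without doublets of the 6 hashtags. Same-numbered samples did not deviate together (r = -0.0077 over all genes of all cells), so the numbers were not taken as pairs.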

Additional observations from a re-analysis of the deposited data

Results flagged for a closer look

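Of the barcodes within the quality limits, 2299 without a labelled hashtag carried 1 of 2 further hashtags that the labels tie to no sample, which is signal outside the compared samples. In the assignment with 6 hashtags 1187 cells carried one of them and 1219 cells the other. Summed over these cells, Gnat3 was at 464 and 392 CPM, Avil at 544 and 443 CPM and Itpr3 at 41.0 and 42.2 CPM, given as values of 2 unlabelled sets of cells. Not all of these cells are among the 2299, and whether all of them stayed outside the comparisons was not checked. No group had the 4 samples that a check for outlying samples needs.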

How the results depend on the processing

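Over 12 alternatives in all kept cells, none of the 96 values of the 8 genes changed direction; in tuft-like cells 7 of 112 did, in the bitter-taste, Nrgn/Frmpd4 and Adh1/Rgs13 clusters 9 of 104, 13 of 104 and 13 of 103, and in Aire-stage-like cells 22 of 112. The causes were not tested. Except in all kept cells, these counts include clustering without the 8 genes, which returned the same clusters, since none of the 8 was a variable gene. The values of that alternative could not change direction. In tuft-like cells Pou2f3 was -0.035 in thinned cells, Plcb2 0.055 with 6 hashtags and 0.088 without their doublets, and Itpr3 0.073 in thinned cells. In the Nrgn/Frmpd4 cluster Gnat3 was 0.083 without those doublets and Gnb3 0.072 with 6 hashtags. In the Adh1/Rgs13 cluster Avil was 0.091 in thinned cells, and in Aire-stage-like cells it was 0.026 with 6 hashtags and 0.264 without their doublets, where Gnat3 was 1.59 and 1.503, Gnb3 0.94 and 0.87 and Plcb2 0.58 and 0.62. The difference in members per tuft-like cell became 0.0054 without those doublets. Genes that passed numbered 0 in all kept cells, against 2991 with no low-count filter, 798 with DESeq2 and 110 in thinned cells. In tuft-like cells they numbered 9, against 498 with no filter, 150 with the replicate block, 32 with DESeq2, 5 with 6 hashtags, 56 with stricter limits, 2 in thinned cells and 0 without doublets. In the Nrgn/Frmpd4 cluster they numbered 4, against 235 with no filter, 16 with the block, 13 with DESeq2, 12 with stricter limits and 13 without doublets. In the Adh1/Rgs13 cluster they numbered 6, against 212 with no filter, 0 with 6 hashtags, 1 by the margin rule, 2 in thinned cells and 0 without doublets. In the bitter-taste cluster they numbered 3, against 171 with no filter, 6 with DESeq2, 18 with stricter limits, 1 in thinned cells and 0 without doublets. In Aire-stage-like cells they numbered 0, against 160 with no filter and 92 with DESeq2. Leaving out each sample in turn gave 0 to 762 genes in all kept cells, 38 to 187 in tuft-like cells, 40 to 129, 68 to 168 and 2 to 245 in the Nrgn/Frmpd4, Adh1/Rgs13 and bitter-taste clusters and 0 to 1 in Aire-stage-like cells, where a lone sample is assumed to vary like the others. The ranges were -0.0014 to 0.116 for tuft-like Pou2f3, -0.073 to 0.049 for tuft-like Plcb2, -0.33 to 0.061 for Nrgn/Frmpd4 Gnb3, -0.10 to 0.022 for Adh1/Rgs13 Avil, -11.6 to -5.63 points for the tuft-like share and -0.228 to -0.101 for members per tuft-like cell. With the replicate block, tuft-like Gnat3 was -0.29 (edgeR, adjusted p = 0.183), and no member's call changed. The mean log2 fold of the 8 genes, tuft-like over other cells, was 3.905, against 4.49 with 6 hashtags and 4.42 without doublets, and the mean share of tuft-like cells with a UMI was 68.0%, against 76.1% at 5000 UMIs per cell and 66.6% with stricter limits. Depth limits Itpr3 most, with 931 UMIs in tuft-like cells.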

Other observations

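Other genes of the tuft programme split between the tuft-like clusters too, given as values with no test. Dclk1 was at 1158 CPM in the bitter-taste cluster, 4553 CPM in the Nrgn/Frmpd4 cluster and 2571 CPM in the Adh1/Rgs13 cluster, against 115 CPM in cells that are not tuft-like. Alox5ap, which serves leukotriene synthesis, was at 504.5 CPM in the bitter-taste cluster, 1299 and 778 CPM in the Nrgn/Frmpd4 and Adh1/Rgs13 clusters and 40.3 CPM in cells that are not tuft-like. The cytokine gene Il25 was at 124, 116 and 70.3 CPM in the same clusters and 3.58 CPM in the rest, and Chat, the enzyme of acetylcholine synthesis, at 259, 325 and 263 CPM and 10.2 CPM in the rest. Kcnq1, a potassium channel, was at 257, 174 and 135 CPM, and 45.4 CPM in the rest.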
